A study of Rattus norvegicus with 36 samples.

Results

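The 46 miRNAs described here are minor arms, the less counted strands of known rat miRNA precursors. A precursor entered when both of its arms, 5p and 3p, had a row among the mature rat miRNAs of the count table and its name was let-7 or carried a number no higher than that of miR-224. A total of 13 precursors of that range were left out by name. The member is the arm with the lower count summed over the 18 lung libraries, provided that this sum reached 20. Of 130 precursors with both arms in the table, 56 were in the range, 46 gave a member and 10 fell under the count threshold. The table holds 947 miRNAs, of which 458 are mature rat miRNAs. Since lung counts chose the members, a low share of the member in lung follows from the choice, and values in lung are given as a description.

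The study compared lung and whole blood of female rats of the WAG/RijCmcr strain, 9 to 10 weeks of age when treated. They received either 1 exposure of the thorax to X-rays at 15 Gy or none (0 Gy, age-matched). In each tissue there were 3 libraries at 0 Gy 1 week, 0 Gy 4 weeks and 15 Gy 1, 2, 3 and 4 weeks, which makes 18 libraries per tissue. The study's methods state that a library pools equal RNA of 3 rats, while the labels give 3 rats per group, so p-values measure only the spread between these libraries. Heart and a small part of the liver were also in the field, and blood was drawn from the heart without separating cells.

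A miRNA precursor is a short RNA hairpin whose stem is cut out by Drosha and Dicer as a duplex. One strand of the duplex is loaded into an Argonaute protein and guides it to target mRNAs through the seed, bases 2 to 8, and the other strand is mostly degraded. The strand with the less stably paired 5′ end and the strand that begins with U or A are known to be favoured, and for some precursors the favoured strand differs between tissues. Both arms come from the same hairpin, so each is cut out once per precursor.

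Sequences were taken from RefSeq on the GRCr8 build and matched by name. The table held 40 of the 46 minor arms, 39 of the partners and both arms of 37 precursors. Unmatched minor arms were miR-30b-3p, miR-30d-3p, miR-30e-3p, miR-148b-5p, miR-150-3p and miR-151-5p. The first set below holds let-7d and miR-130b, whose member was the higher arm in blood, and miR-106b. MiR-106b was the most variable in blood of 12 members with 100 or more counts of each arm. Each arm stands with its partner and with the seed in capitals.
let-7d-5p: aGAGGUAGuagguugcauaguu
let-7d-3p: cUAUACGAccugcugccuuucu
miR-130b-3p: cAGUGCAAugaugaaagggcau
miR-130b-5p: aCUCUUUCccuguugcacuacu
miR-106b-5p: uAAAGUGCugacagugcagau
miR-106b-3p: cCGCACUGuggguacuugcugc

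In these 3 precursors the minor arm carries a seed that other matched rat miRNAs of the count table share, and the partner does not. The seed of miR-145-3p, which was also close to equal with its partner in lung, is shared with no other miRNA of the table. Let-7d-5p (chr17:16322273-16322294, plus strand, within a long noncoding RNA gene) has the let-7 seed, and its lung count was nevertheless below that of let-7d-3p. MiR-130b-3p (chr11:97384430-97384451, plus strand, within 2610318N02Rikl) shares its seed with miR-130a-3p and miR-301b-3p. MiR-106b-5p (chr12:22157103-22157123, minus strand, within Mcm7, a gene of the DNA replication licensing complex) shares its seed with miR-93-5p, miR-17-5p and miR-20a-5p, the growth-promoting miR-17 family.

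The second set shows minor arms that share a seed with another minor arm, as 3 pairs, the only shared seeds among the 40 matched members.
let-7b-3p: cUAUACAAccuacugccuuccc
miR-98-3p: cUAUACAAcuuacuacuuucc
miR-99a-3p: cAAGCUCGuuucuaugggucug
miR-99b-3p: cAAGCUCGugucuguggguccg
miR-200a-5p: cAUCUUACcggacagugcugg
miR-200b-5p: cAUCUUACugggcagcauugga

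Minor and major arms differed in their first base. Of the 37 minor arms with both sequences, 5 began with U, 14 with A, 14 with C and 4 with G. Of their 37 partners, 23 began with U, 5 with A, 8 with C and 1 with G. The minor arm had the higher GC content in 22 precursors, the lower in 11 and the same in 4. Shared seeds and near neighbours were searched only among mature rat miRNAs of the count table that had a RefSeq sequence. The partner shared its seed with another of these in 23 precursors and the minor arm in 8. Among 37 other precursors of the table with 20 or more lung counts on the lower arm and both sequences, 10 lower arms and 15 higher arms began with U. In 3 of the 40 matched minor arms another mature miRNA lay within 2 edits, namely let-7d-5p (let-7a-5p), miR-130b-3p (miR-130a-3p) and miR-181c-3p (miR-181a-1-3p), so reads of these could be shared in mapping, as could those of 13 partners.

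**Figure D1:**
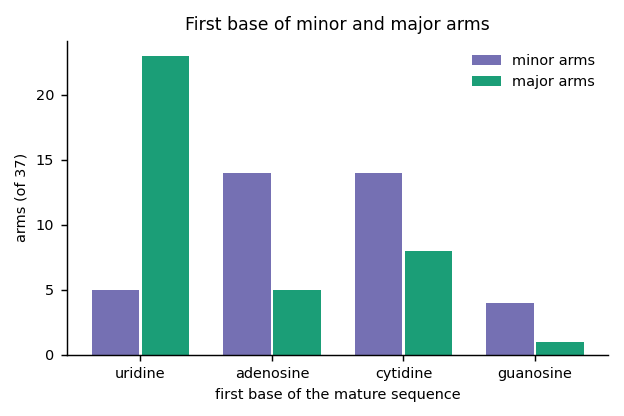
First base of the mature sequence (horizontal axis) and number of arms (vertical axis) for the 37 minor arms and their 37 major arms. U opens 23 major arms and 5 minor arms, while A and C open 14 minor arms each.

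In lung the minor arms ranged from 0.00692% of the counts of their pair, for miR-10a-3p, to 48.2%, for let-7d-5p, with a median of 2.25% over the 46. The share was under 1% in 18 precursors and under 10% in 39. Among the 42 other precursors with 20 or more lung counts on the lower arm, the median was 20.8%, and 14 were under 10%. The 10 most counted members were miR-151-5p (29372 lung counts), let-7d-5p (9892), miR-30a-3p (7129), miR-145-3p (6342), miR-101a-5p (2321), let-7b-3p (2211), miR-28-5p (1829), miR-30e-3p (1529), miR-143-5p (860) and miR-195-3p (768). Together these made up 89.6% of all lung counts of the members, and miR-151-5p alone 42.3%. Arms were closest to equal in let-7d (48.2%), miR-145 (44.8%) and miR-130b (41.2%). The miR-145-3p share was 44.8% with 6342 counts, while the neighbouring miR-143-5p, from the same long noncoding RNA gene Carmn of smooth muscle, made up 0.0390% of its pair with 860 counts. The members just inside the threshold were miR-29a-5p and miR-92b-5p with 20 lung counts each and miR-222-5p with 26, and the precursors just outside were miR-33-3p with 17, miR-183-3p with 16 and miR-212-5p with 14.

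The depth behind these shares differed between libraries. Total counts were 1156407 to 2340177 in blood and 239592 to 3807051 in 16 lung libraries, while the other 2 lung libraries, 0 Gy 1 week replicate 3 and 15 Gy 3 weeks replicate 3, held 11621 and 8132. Ranges in lung are therefore given over the 16 deeper libraries, and the tests used all 18. MiR-486-5p, a miRNA of red cells, took 83.3% to 95.9% of each blood library, which leaves a small part for all members together. In the 16 deeper lung libraries it took 0.693% to 5.65%. In the shallow lung libraries it took 5.79% at 0 Gy 1 week replicate 3 and 48.1% at 15 Gy 3 weeks replicate 3. Tissue labels matched their markers in the main. The median level of miR-143-3p was 85709 CPM in lung (counts scaled to a common library total) and 123 in blood, that of endothelial miR-126a-5p 9958 and 23.6, that of epithelial miR-200b-3p 711 and 0.473, and that of red cell miR-451-5p 81.4 and 3317. Leukocyte miR-223-3p and miR-150-5p had medians of 12.4 and 29.3 CPM in blood, below the 80.6 and 1163 of lung. These CPM are over totals that include miR-486-5p, at a median of 90.5% in blood and 2.09% in the 16 deeper lung libraries. They therefore do not rank leukocyte RNA between the tissues. In whole tissue, fewer cells of a type and less RNA per cell cannot be told apart.

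Some libraries carried an arm ratio that followed base composition. In each library the log2 ratio of minor to major arm was set against the difference in GC content between the arms, as a deviation from the precursor's median, over 48 precursors in lung and 18 in blood with 100 or more counts of each arm. A slope above 0.5 on the log2 scale per 10 percentage points of GC was called steep, a cutoff chosen after seeing the data. It was passed by 4 blood libraries. The shallow lung library 15 Gy 3 weeks replicate 3 also lay above it, at 0.63 on 8132 counts, and is not among the libraries called steep below. The 4 blood libraries were replicate 3 of 0 Gy 1 week, 0 Gy 4 weeks, 15 Gy 1 week and 15 Gy 4 weeks. Their slopes were 1.38, 0.93, 0.83 and 0.54. The next blood library, 15 Gy 1 week replicate 2, had 0.42, so the cutoff and not a gap sets the number 4. The other 14 blood libraries ran from −0.48 to 0.42 and the 16 deeper lung libraries from −0.30 to 0.42. In the 4 libraries the share of miR-106b-5p, which has 20.8 points less GC than its partner, was 2.65%, 5.26%, 6.57% and 6.90%, against 12.7% to 42.3% in the other 14. MiR-106b and let-7d were themselves among the precursors that set the slopes. Their values in the steep libraries are therefore a description and no support for the slopes. These 4 libraries were kept in the tests, and results in blood are also given without them.

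**Figure D2:**
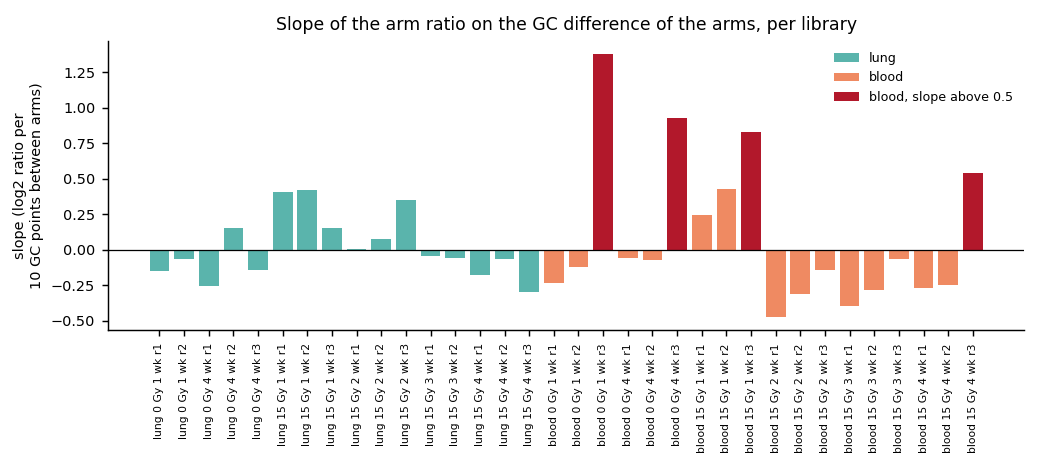
Slope of the log2 arm ratio on the GC difference between the arms (vertical axis, log2 per 10 percentage points) for the 16 deeper lung and 18 blood libraries (horizontal axis, r is the replicate and wk the week). The 4 blood libraries in dark red have slopes from 0.54 to 1.38, and all other bars lie between −0.48 and 0.42.

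In blood, the arm that was minor in lung was also the lower one in 44 of the 46 precursors by summed counts, and the higher one in 2, let-7d and miR-130b. Of the members, 22 had 20 or more counts on both arms in blood, 17 had 1 to 19 counts of the minor arm and 7 had 0, namely let-7e-3p, miR-10a-3p, miR-92b-5p, miR-125a-3p, miR-200a-5p, miR-200b-5p and miR-222-5p. A count of 0 allows a share of up to 0.139% for miR-10a-3p (2161 counts of the pair) and 0.638% for miR-125a-3p (470 counts), both above the lung share, and the same holds for the other 5, so a difference from lung was not detectable at this depth. These limits rest on 3 counts over the 18 libraries and cover counting error only.

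Let-7d-5p, the let-7d arm with the let-7 seed, had the most balanced pair in lung and was the higher arm in blood. Its share over the 16 lung libraries was lowest at 15.4%, with a median of 51.8% and a highest value of 66.3%. It exceeded let-7d-3p in 9 of them. Let-7d-5p made up 56.6% of the summed pair counts in the 5 deeper 0 Gy lung libraries and 41.7% in the 11 at 15 Gy. By this sum it was the higher arm in lung at 0 Gy, as in blood. Its share in the 18 blood libraries was lowest at 55.8%, with a median of 86.5% and a highest value of 94.7%, and it exceeded let-7d-3p in all 18. The ranges overlapped. In blood the log2 ratio of let-7d-5p to let-7d-3p was 2.51 (SE 0.20, 95% interval 2.11 to 2.90, n = 18 libraries), with an adjusted p of 3.68e-13 in edgeR's quasi-likelihood test over 46 precursors. Without the 4 libraries with a steep GC slope it was 2.81 (SE 0.16). Let-7d-5p lies 2 edits from let-7a-5p, and the part of shared reads in its counts was not tested.

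MiR-130b-3p, a miR-130/301 family arm, was also the higher arm in blood, on far fewer counts. Its lung count was 54 against 77 for miR-130b-5p, with a median share of 31.7% over the 16 libraries, and in blood it was 487 against 81. The share in blood was lowest at 58.8%, with a median of 87.6% and a highest value of 97.6%, and miR-130b-3p exceeded its partner in 18 of 18 libraries. The log2 ratio in blood was 2.57 (SE 0.23, 95% interval 2.11 to 3.03, n = 18), with an adjusted p of 8.33e-12 in the same test, and 2.80 (SE 0.23) without the 4 libraries. MiR-130b-3p lies 2 edits from miR-130a-3p, and the part of shared reads was not tested here either.

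The test of arm preference in blood passed the threshold of 0.05 in all 22 members that could be tested, with the minor arm lower in 20 and higher in 2. Over all 46 precursors tested in blood, 78.3% were called with the minor arm lower and 10.9% with it higher. The 22 were those with counts of both arms, so they are not a sample of the 46. Log2 ratios below 0 ran from −11.67 (SE 0.27) for miR-191a-3p to −1.94 (SE 0.15) for miR-101a-5p.

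**Figure D3:**
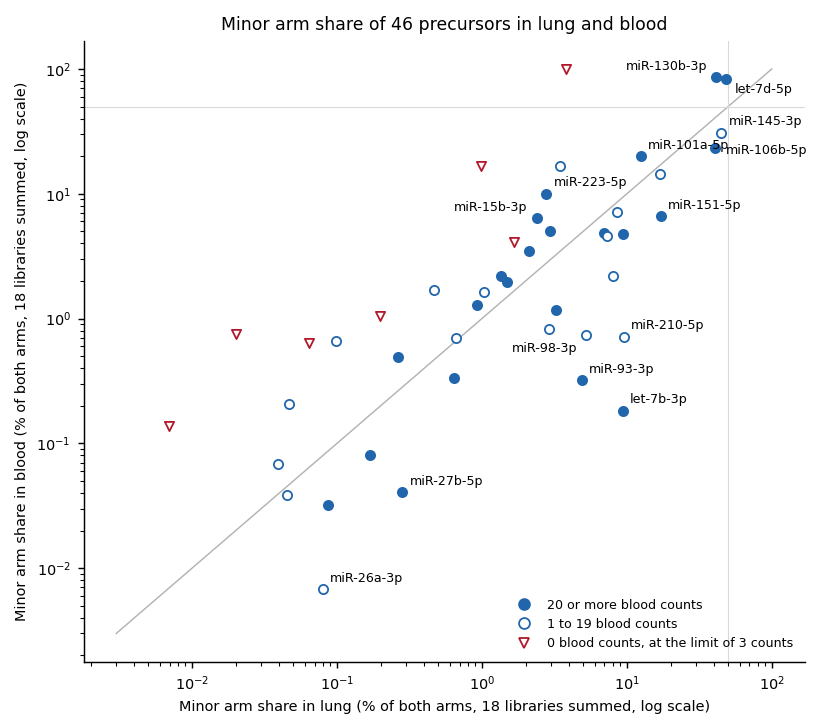
Minor arm share of each of the 46 precursors in lung (horizontal axis) and blood (vertical axis), in percent of the counts of both arms summed over 18 libraries, both on a log scale, with the diagonal of equal shares and lines at 50%. Let-7d-5p at 83.8% and miR-130b-3p at 85.7% are the 2 points above 50% in blood among the members with counts there, while let-7b-3p and miR-93-3p lie farthest below the diagonal. Triangles are members with 0 counts in blood, placed at the limit of 3 counts.

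The distance between the tissues was wide in both directions. The comparison held 35 members with 50 or more counts of the pair in each tissue and some minor arm counts in blood. The summed arm ratio was over 2-fold higher in lung in 14, over 2-fold higher in blood in 7 and within 2-fold in 14. The minimum is on the pair, so some ratios rest on few blood counts of the minor arm. Among those higher in blood, miR-141-5p had 1, miR-29a-5p 2 and miR-99b-3p 4. Among those higher in lung, miR-30b-3p had 7 and miR-221-5p 10. These values describe the libraries, without a test, because lung counts chose the arm. Across 28 of the 35 members with both sequences, the log2 difference between tissues was set against the GC difference of the arms. Pearson's r was 0.01 and Spearman's rho 0.05, over points that share the same libraries.

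Let-7b-3p had the largest ratio in favour of lung, with 2211 counts against 21401 of let-7b-5p in lung and 34 against 18529 in blood. The share was 3.93% to 35.4% (median 8.65%) in the 16 lung libraries and 0% to 0.683% (median 0.154%) in the 18 blood libraries, and the ranges did not overlap. The summed ratio was 56.3-fold higher in lung. MiR-98-3p, which has the same seed, had 130 against 2362 counts in lung and 18 against 2435 in blood, a 7.45-fold higher ratio in lung. By contrast let-7i-3p, from another let-7 gene, made up 0.169% of its pair in lung and 0.0801% in blood. The other large ratios in favour of lung were those of miR-93-3p (4.90% in lung and 0.322% in blood, 15.9-fold), miR-210-5p (9.54% and 0.715%, 14.6-fold, on 7 blood counts, and 22.5-fold without the 4 steep blood libraries) and miR-26a-3p (0.0802% and 0.00683%, 11.7-fold, on 11 blood counts). MiR-210 is known as a hypoxia-induced miRNA, and miR-93 is a paralog of the miR-17-92 cluster. MiR-27b-5p was at 0.282% in lung and 0.0408% in blood.

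Shares of the 16 lung libraries lay above all blood libraries in let-7b-3p, miR-27b-5p and miR-93-3p. They did so too in let-7e-3p, miR-125a-3p and miR-200a-5p, but these had 0 minor arm counts in blood on 73, 470 and 3 counts of the partner, too few to detect a difference. No member lay below. Over 97 precursors with counts of either arm in both tissues, 7.22% lay above and 1.03% below, and nothing is read from these counts since the members were chosen by lung counts.

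Other precursors had the higher share in blood. MiR-223-5p, the partner of the myeloid miR-223-3p, made up 2.79% in lung (50 counts) and 10.0% in blood (46 counts). MiR-15b-3p made up 2.39% in lung (45 counts), and in blood (735 counts) its share had a median of 4.97% and ran from 0.905% to 16.2%. MiR-101a-5p, whose partner miR-101a-3p targets the histone methyltransferase Ezh2, had a median share of 13.2% in lung (7.11% to 18.8%) and of 20.2% in blood (12.4% to 41.7%), and the ranges overlapped. Among members with 50 or more counts of the pair in each tissue, the largest differences in favour of blood by the median log2 ratio, in miR-92b-5p, miR-10a-3p, miR-125a-3p, miR-141-5p and miR-99a-3p, came from blood libraries with 0 or 1 minor arm counts in total, where the pseudocount of 0.5 sets the ratio, so no fold is given for them.

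Precursors from 1 transcript differed in arm share. Hairpins within 10000 bases on the same strand formed 5 groups. In the group on chr12 within Mcm7, the lung share was 40.4% for miR-106b-5p, 4.90% for miR-93-3p and 0.646% for miR-25-5p. In the group on chr1 within Spaca6, it was 1.66% for let-7e-3p, 0.0643% for miR-125a-3p and 0.0469% for miR-99b-3p. The pair miR-221 and miR-222 on chrX differed 40.6-fold, with 0.197% for miR-222-5p, and miR-200a and miR-200b on chr5 gave 3.83% and 0.983%. MiR-143 and miR-145 gave the widest gap, as above. In blood, miR-106b-5p had 1752 counts against 5840 of its partner (23.1%), with a lowest share of 2.65%, a median of 21.0% and a highest of 42.3%.

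**Figure D4:**
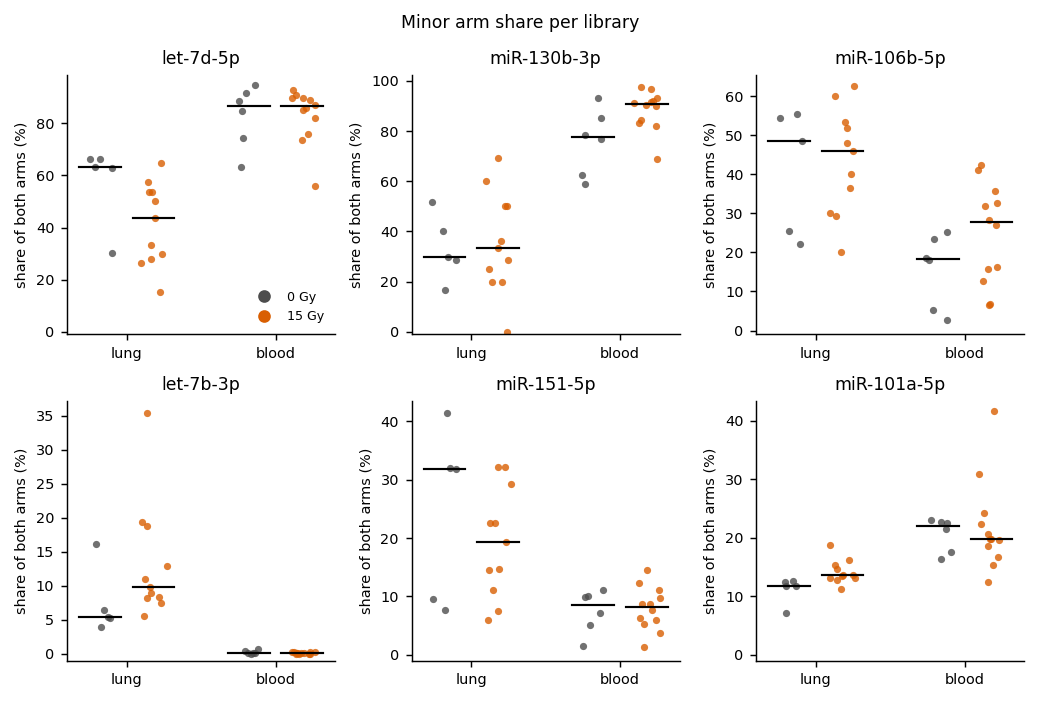
Minor arm share in percent of both arms (vertical axis) for 6 precursors in each of the 16 deeper lung and 18 blood libraries (horizontal axis), grey for 0 Gy and orange for 15 Gy, with the median as a bar. Let-7d-5p and miR-130b-3p have the higher medians in blood, let-7b-3p and miR-151-5p in lung, and the doses overlap in each panel.

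Within families the lung share of the minor arm ranged widely. In the let-7 and miR-98 group the lung share ran from 0.169% for let-7i-3p to 48.2% for let-7d-5p, and the minor arm was 3p in each but let-7d. In the miR-17-92 paralogs it ran from 0.0202% for miR-92b-5p to 40.4% for miR-106b-5p. In the miR-30 family, all 4 minor arms were 3p and made up 0.265% (miR-30d-3p), 1.48% (miR-30a-3p) and 2.91% (miR-30b-3p), with miR-30e-3p the most balanced at 1529 counts against 20328. In blood miR-30a-3p was at 1.95% and miR-30e-3p at 4.84%. The 4 members of the miR-26 and miR-27 families were all under 1% in lung, with 0.927% for miR-26b-3p, 0.658% for miR-27a-5p, 0.282% for miR-27b-5p and 0.0802% for miR-26a-3p. The miR-29a-5p and miR-29c-5p shares, from a family known to repress collagen genes, were 0.0985% and 3.44%. All 4 members of the Hox-embedded miR-10a and the miR-99 and miR-125 families were at 1.03% or less. Among the epithelial miRNAs, miR-141-5p was at 0.467% in lung. MiR-150-3p, from the lymphocyte precursor miR-150, was at 1.34% in lung and 2.18% in blood, miR-28-5p was at 2.93% and 5.02%, and miR-181c-3p at 9.46% and 4.75%.

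Variation between libraries was of the size of many of these differences. Over the 35 members with 100 or more counts of each arm in lung, the SD of the log2 arm ratio over the 16 libraries was 0.34 to 1.57, with a median of 0.87. It was smallest for miR-101a and largest for miR-99b. Over 12 such members in blood it was 0.48 to 1.32, with a median of 0.84, smallest for miR-30a and largest for miR-106b. The members' summed share of all counts of their pairs was 0.589% to 1.73% in the 16 lung libraries and 1.34% to 3.24% in blood. Let-7d-5p, the higher arm of its pair in blood, alone made up 58.8% of the members' blood counts. The summed blood share therefore largely follows let-7d-5p and does not describe the members in general.

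The change after irradiation was tested per precursor as the change of the log2 ratio of minor to major arm, in a quasi-likelihood fit of edgeR over all precursors with 20 or more counts of each arm in that tissue. Weeks 1 and 2 were compared with 0 Gy 1 week and weeks 3 and 4 with 0 Gy 4 weeks, so that weeks share their controls. In lung, 0 of 46 members passed an adjusted p of 0.05 in any of the 4 weeks, in 0 Gy 4 weeks against 1 week, or in all 15 Gy against all 0 Gy libraries, where the share of all 88 precursors tested that was called was 0%. At an unadjusted p under 0.05 there were 9, 2, 1, 3, 5 and 2 members in these comparisons, beside 15, 2, 3, 6, 5 and 4 of all 88 precursors. With the GC slope of each library as an offset, 37 members and 74 precursors in all could be fitted. The 1 week comparison then had 2 members under 0.05, beside 9 of all 74 precursors. The members' median change was −0.15 over the 37, against 0.20 over the 46 without the offset. Over all precursors the median was −0.11 for the 74 with the offset and 0.16 for the 88 without, and these sets differ. Limma and DESeq2 also called 0 members. The standard error of a week's change had a median of 0.70 to 0.77 on the log2 scale, and changes of more than 2 standard errors were also not called. In all 15 Gy against all 0 Gy, 28 of 46 members had a value above 0 and the median was 0.13, beside 49 of 88 and 0.08 over all precursors tested.

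The 5 smallest p in lung in that comparison were those of let-7b, let-7d, miR-30b, miR-139 and miR-150, with log2 changes of 0.94 (SE 0.42), −0.97 (SE 0.45), 0.84 (SE 0.44), 1.19 (SE 0.65) and 0.72 (SE 0.50). Their adjusted p were 0.833 for let-7b and let-7d, 0.875 for miR-30b and miR-139, and 0.932 for miR-150. The let-7b-3p share had a lowest value of 3.93%, a median of 5.39% and a highest of 16.2% in 5 deeper 0 Gy libraries, against 5.58%, 9.85% and 35.4% in 11 at 15 Gy. The let-7d-5p share had a median of 63.0% at 0 Gy (30.4% to 66.3%) and 43.6% at 15 Gy (15.4% to 64.6%). The doses overlapped in both precursors.

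At 1 week, the let-7d-5p share in lung was 33.4%, 29.7% and 28.1% in the 3 irradiated libraries, against 66.1%, 63.0% and 35.0% at 0 Gy, the last value on 20 counts of the pair. The change was −1.69 (SE 0.72, adjusted p = 0.274 by edgeR). At 2 weeks the shares were 50.1%, 26.2% and 15.4%, with a change of −1.79 (SE 0.75, adjusted p = 0.982). At 3 weeks they were 43.6%, 53.6% and 0%, the last on 9 counts of the pair, and at 4 weeks 64.6%, 57.6% and 53.5%, against 66.3%, 30.4% and 63.0% at 0 Gy 4 weeks. The changes were −0.72 (SE 0.75, adjusted p = 0.922 by edgeR) at 3 weeks and 0.31 (SE 0.71, adjusted p = 0.978) at 4 weeks. In the lung libraries of 15 Gy 1 week the GC slope was 0.40, 0.42 and 0.15, against −0.15 and −0.07 in the 2 deeper libraries of 0 Gy 1 week, and let-7d-5p has 9.09 points less GC than its partner. With the offset, the change at 1 week was −1.41 (SE 0.63, adjusted p = 0.386). Let-7d was among the precursors that set the GC slopes, and the part of base composition in its values was not tested beyond this.

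In blood, 22 members could be tested by dose and week and 24 could not. None passed an adjusted p of 0.05 in the 4 weeks, in 0 Gy 4 weeks against 1 week or over all doses, and the share of all 46 precursors called was 0% in each. Unadjusted p were under 0.05 in 0, 3, 3, 0, 0 and 2 members, beside 3, 5, 4, 0, 1 and 5 of all 46 precursors, and limma and DESeq2 called 0. With a replicate block, miR-26b and miR-106b were called at 15 Gy 2 weeks and over all doses, and miR-106b at 15 Gy 3 weeks, as given at the end. The share of all precursors called under the block is not given, so these calls are not read as particular to the members. The 5 smallest p of all 15 Gy against all 0 Gy were those of miR-26b (−1.30, SE 0.51), miR-130b (1.25, SE 0.51), miR-30a (−0.59, SE 0.30), miR-140 (0.67, SE 0.35) and miR-106b (0.86, SE 0.48), on the log2 scale. The adjusted p were 0.262 for miR-26b and miR-130b, 0.421, 0.456 and 0.488.

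**Figure D5:**
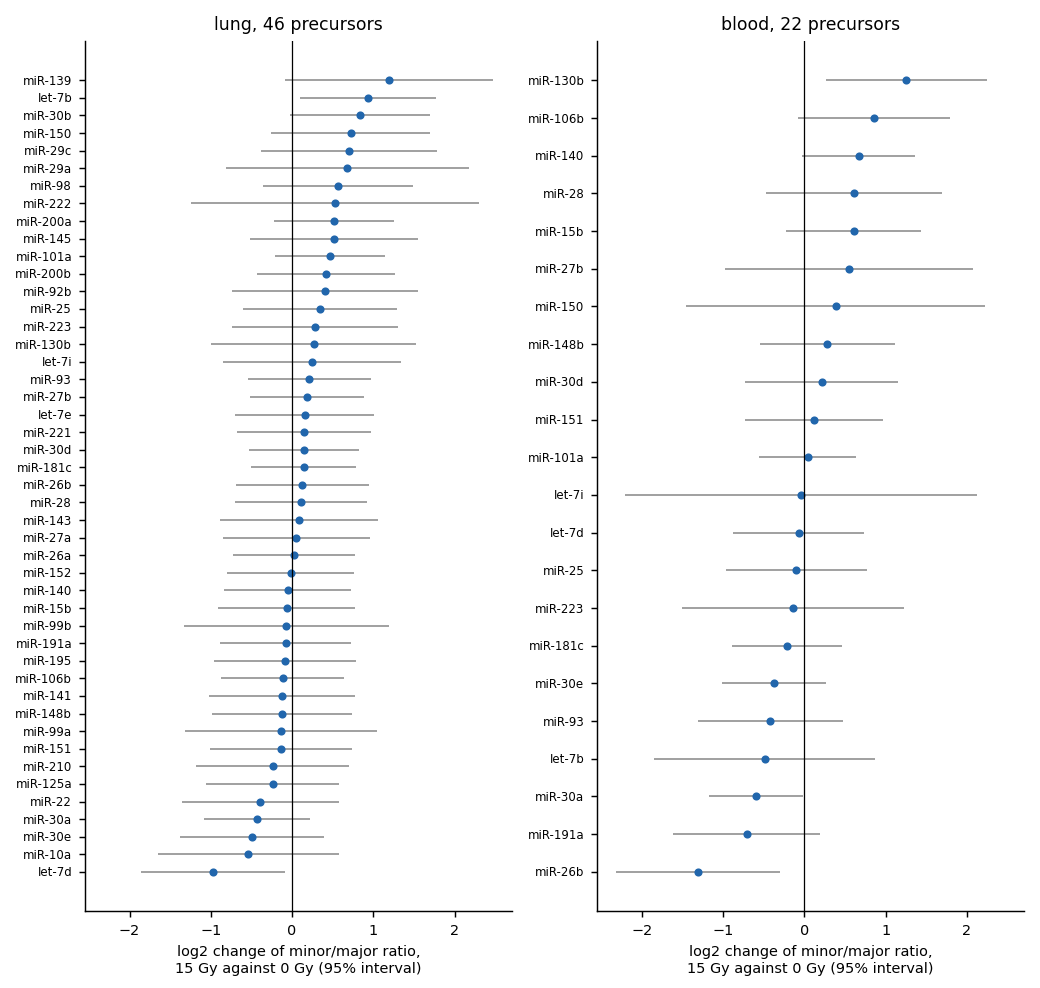
Change of the log2 ratio of minor to major arm in all 15 Gy against all 0 Gy libraries (horizontal axis, with 95% intervals) for the 46 members tested in lung and the 22 tested in blood (vertical axis, precursors ordered by value). None passed an adjusted p of 0.05, and most intervals cross 0.

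MiR-106b-5p shows how these values move with the libraries. Its share in blood was 25.2%, 18.6% and 2.65% at 0 Gy 1 week, 17.9%, 23.4% and 5.26% at 0 Gy 4 weeks, and 16.3%, 12.7% and 6.57% at 15 Gy 1 week. It was 41.1%, 31.9% and 28.3% at 2 weeks, 42.3%, 35.8% and 15.8% at 3 weeks, and 32.7%, 27.1% and 6.90% at 4 weeks. Replicate 3 was the lowest in each of the 6 groups. Without the 4 steep libraries the change over all doses was 0.39 (SE 0.28, adjusted p = 0.550), and with the GC offset it was 0.36 (SE 0.24). Since miR-106b helped to set the GC slopes, these 2 values are not independent of it. For miR-26b the change without them was −1.02 (SE 0.48, adjusted p = 0.377), and for miR-130b it was 0.75 (SE 0.54, adjusted p = 0.550). The miR-26b-3p share was 0.433% to 10.5% at 0 Gy (28 counts in all) and 0.322% to 5.68% at 15 Gy (40 counts in all).

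The level of the minor arm itself was tested after scaling by trimmed mean of M values (TMM), where 34 members passed the filter on low counts in lung and 13 in blood. None passed an adjusted p of 0.05 with edgeR or DESeq2 in any comparison. Of all miRNAs tested in lung, 0% were called, except 0.2% in 15 Gy 4 weeks, and in blood 0.346% were called at 1 week, at 2 weeks and in 0 Gy 4 weeks against 1 week, 0% at 3 and 4 weeks and 1.04% over all doses. Unadjusted p were under 0.05 in 3, 1, 1, 0, 0 and 0 members in lung and in 0, 0, 2, 2, 0 and 1 in blood, beside 4.15% to 15.9% of all miRNAs tested in blood and 5.01% to 10.4% in lung. In lung, miR-151-5p was at 1725 ± 398 CPM at 0 Gy 1 week and 1279 ± 530 CPM at 15 Gy 1 week (SD, n = 3). In blood miR-140-5p had a log2 change of 0.83 (SE 0.35) over all doses, with an adjusted p of 0.268 in edgeR's test.

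The change after 15 Gy in lung minus that in blood was tested in 22 members, and 0 passed, where the share of all 43 precursors called was 0%. MiR-26b had an unadjusted p under 0.05, with a difference of 1.43 (SE 0.64, adjusted p = 0.417 by edgeR). Limma called 0.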

How the data were processed

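Small RNA libraries of total RNA were made with the Illumina TruSeq kit. The submitters' processing notes name Trim Galore 0.2.5, Bowtie 1.1.1 and the rn4 build. The authors mapped reads to miRBase and deposited raw read counts per miRNA, whole numbers, which were used unchanged. How reads shared by near-identical miRNAs were assigned is not given in the sources used here. Groups were taken from the sample titles.

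Arm ratios were fitted with edgeR 4.0.16 in R 4.3.3, with a term for each library and the log2 ratio of the arms in each group as coefficients, the robust quasi-likelihood test and Benjamini-Hochberg adjustment over all precursors with 20 or more counts of each arm. The standard error is the log2 value over the root of F, and intervals are 1.96 standard errors. Levels were scaled with TMM after filterByExpr. Limma 3.58.1 (log2 ratios, pseudocount 0.5) and DESeq2 1.42.0 were alternatives. The fits were also run on simulated counts with planted changes, and the outcome is not given here. The planted changes were larger than the dose changes given above. The simulation therefore does not tell how well changes of that size would be found. PCR reads are not independent molecules, so limits at 0 counts cover counting error only.

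Named were the 10 most counted members, those with the higher arm in blood, the 5 smallest p over all doses in each tissue, the 5 largest and 5 smallest tissue differences, the 3 nearest to equal arms, the 3 on each side of the threshold and examples of each family. The members, lists and tests were chosen with earlier results of these data known.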

Additional observations from a re-analysis of the deposited data

How the results depend on the processing

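Replicate numbers were not taken as pairs in the main fit, since the labels give them no meaning. Of 45 pairs of libraries with the same number, the deviations of the arm ratios from the group means correlated above 0.1 in 23 in lung and 22 in blood, from −0.30 to 0.65 and from −0.35 to 0.55. The best match of a library in another group had its own number for 11 of 18 libraries in lung and 8 of 18 in blood. The number to be expected without pairing was not worked out. The 4 steep blood libraries are all replicate 3, which also had the lowest miR-106b-5p share in each blood group. Whether libraries of the same number belong together cannot be told from the labels. A replicate block in the fit moved the count of members called in blood from 0 to 2 at 15 Gy 2 weeks and over all doses (miR-26b and miR-106b in both, with adjusted p of 0.0317 and 0.0113 by edgeR over all doses), and to 1 at 15 Gy 3 weeks (miR-106b). The block moved no other count of members called. The share of all precursors called under the block, or with 1 library left out, is not given here. Such calls are therefore not read as particular to the members. Leaving out 1 library at a time gave 0 to 1 members called in 0 Gy 4 weeks against 1 week in lung (1, miR-195, without 0 Gy 4 weeks replicate 1) and 0 to 1 at 15 Gy 2 weeks in blood (1, miR-26b, without 0 Gy 1 week replicate 1). The other counts of members called by dose and week stayed at 0 with other count minimums, limma, DESeq2, other scalings, all 0 Gy libraries as controls, the exchange of 2 blood libraries, the shallow lung libraries left out, and, added after seeing the data, the GC offset and the 4 steep blood libraries left out. The median log2 difference of the arm ratio between lung and blood over the 46 members was −0.85 from library medians and 0.28 from summed counts over the members with blood counts of the minor arm, where the pseudocount does not set the ratio of blood libraries at 0. In blood, arm preference was called for 17 to 30 members under the alternatives, each being all that could be tested, with 2 higher in each alternative. Most precursors were called too, with 41 of 46 in the main fit and 35 of 39 with the GC offset. Nothing particular to the members is read from these calls. The depth of blood outside miR-486-5p limits 24 members to a description.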
